A study of Homo sapiens with 4 samples.

Results

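The Notch pathway was followed through 10 genes in TE5, a human oesophageal squamous cell carcinoma line grown in culture: the receptors NOTCH1, NOTCH2 and NOTCH3, the ligands JAG1, JAG2 and DLL1, the nuclear proteins RBPJ and MAML1, and the targets HES1 and HEY1. The genes were chosen by name, with earlier results of these data known, and all 10 were found among the 55764 gene names of the expression table. Bulk RNA of 4 libraries was sequenced. In 2 libraries the cells had received a lentiviral CMV vector for overexpression of ETS1, an ETS-family transcription factor, and in the 2 others, the controls, the vector backbone, with the genotype given as WT. Virus was packaged in HEK293T cells, a human kidney-derived line. The labels do not say whether infected cells were selected, whether the 2 libraries of a group come from separate infections or cultures, nor whether the cells were a clone or a pool, so p-values measure only the spread between these libraries, which may be technical.

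Notch receptors are single-pass membrane proteins that are switched on by ligands of the Jagged and Delta families on neighbouring cells. Ligand binding lets an ADAM protease and then gamma-secretase cut the receptor, and the freed intracellular part enters the nucleus, binds the DNA-binding protein RBPJ and recruits a Mastermind-like coactivator such as MAML1. This complex turns on HES and HEY genes, which encode basic helix-loop-helix repressors. In stratified squamous epithelium, Notch signalling is known for driving cells out of the basal layer into differentiation, and its components are often altered in squamous carcinomas. mRNA levels do not report receptor cleavage, so the values below describe transcripts and not pathway activity.

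RBPJ recognises DNA with the core TGGGAA, and promoter sequences (250 bases before to 50 bases after the start, RefSeq, GRCh38.p14) were searched for it on both strands. HES1 and HEYL, chosen for display after their values were seen, are shown because both are HES/HEY genes with 2 copies of the core. HES1 was slightly higher and HEYL slightly lower in the ETS1 libraries, and neither call held under all other settings tried. HES5, HEY2 and 1 promoter of RBPJ also held 2 copies. The printed part is the 250 bases that end just before the annotated start, read in the direction of the gene, with each core or its reverse complement TTCCCA in capitals. HES1 is at chr3:194135898-194136147 on the plus strand and HEYL at chr1:39639644-39639893 on the minus strand.
HES1: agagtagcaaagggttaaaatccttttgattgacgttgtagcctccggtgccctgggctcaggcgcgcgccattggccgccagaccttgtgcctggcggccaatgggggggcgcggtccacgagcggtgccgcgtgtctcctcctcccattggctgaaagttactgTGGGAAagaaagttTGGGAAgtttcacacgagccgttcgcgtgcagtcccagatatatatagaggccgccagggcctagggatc
HEYL: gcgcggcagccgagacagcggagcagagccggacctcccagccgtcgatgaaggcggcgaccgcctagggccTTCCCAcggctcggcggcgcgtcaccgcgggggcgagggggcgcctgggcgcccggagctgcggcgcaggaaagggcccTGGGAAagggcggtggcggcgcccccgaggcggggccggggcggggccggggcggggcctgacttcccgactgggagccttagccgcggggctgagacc
The cores of HES1 begin 84 and 70 bases upstream of the start, in the same orientation. Those of HEYL begin 178 and 99 bases upstream, in opposite orientations. For 8 of the 10 genes the table held 12 promoters, 5 of them alternative starts of RBPJ (none for DLL1 or HEY1). The core was in 2 of the 12, that of HES1 and 1 of the 5 of RBPJ, against 24.0% of all 35116 promoters of this length. Among 7 further Notch targets, 6 were matched with 1 promoter each and 4 held it (HES4, HES5, HEY2 and HEYL). The ETS core CCGGAA was in none of the 12 promoters and in 1 of the 6 target promoters, that of HES7, against 17.2% of all. The HES/HEY boxes CACGAG and CACGTG were in 3 (NOTCH2, NOTCH3 and HES1) and in none of the 12, against 6.78% and 7.26% of all, each counted on both strands and without overlap with the RBPJ cores of HES1. These matches are descriptions of letters in a window, not bound sites.

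The overexpressed gene was read first. ETS1 had 0.491 and 0.509 FPKM (a read count corrected for gene length and for library depth) in the controls and 1.84 and 1.87 FPKM in the ETS1 libraries, so the libraries matched their labels. Its level stayed low, at percentile 0.14 of tested genes in the controls and 15.3 in the ETS1 libraries. It reached the mean of 1 FPKM needed for testing only through the ETS1 libraries. Reads recovered from the deposited values came to 40356722 and 44119605 in the controls and 57269982 and 56502877 in the ETS1 libraries, 1.35 times as many on average. Squamous epithelial markers were nearly absent: the 5 genes KRT5, KRT14, TP63, KRT13 and KRT4 summed to between 0.0775 and 0.0935 FPKM in each library, and 4 of them were listed at 0 in both controls. The simple epithelial markers KRT8, KRT18, KRT19, EPCAM and CDH1 summed to between 16.1 and 16.9 FPKM in every library, but its members moved in opposite directions. KRT8 rose from a mean of 3.89 to 6.53 FPKM (limma adjusted p 0.000591) and KRT18 fell from 10.4 to 8.32 FPKM (adjusted p 0.00223). EPCAM (1.36 and 1.02 FPKM, adjusted p 0.0525) and CDH1 (0.569 and 0.998 FPKM, not tested) were not called, and KRT19 was at most 0.0224 FPKM. Fibroblast markers summed to 2.13 to 2.28 FPKM in the controls and 3.09 to 3.19 FPKM in the ETS1 libraries, with COL1A2 at 0 in both controls. Most of it was COL1A1, which was called higher (limma adjusted p 0.00599). Endothelial markers summed to 0.0604 and 0.0642 FPKM in the controls and 0.127 and 0.109 FPKM in the ETS1 libraries, with CDH5 at 0 in both controls. The part of these differences in the results below was not tested.

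**Figure D1:**
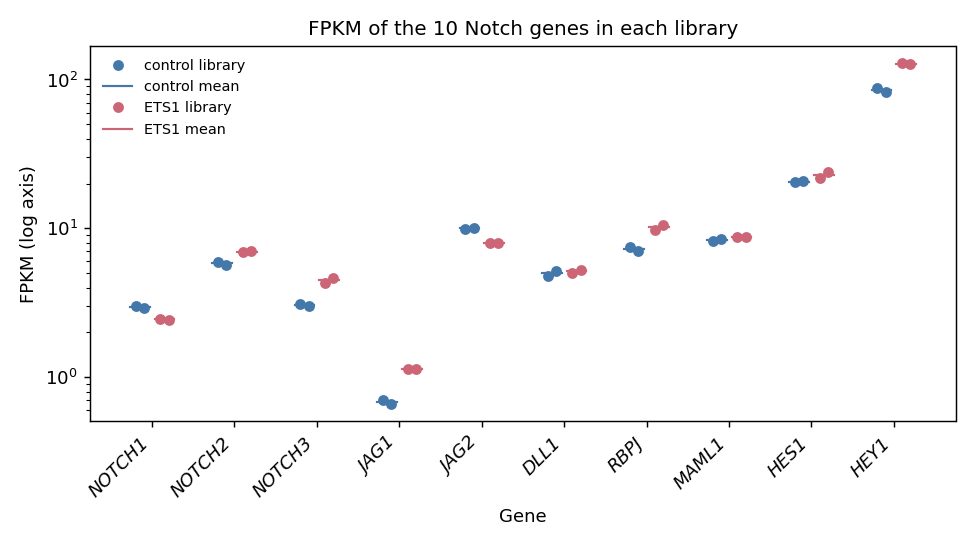
FPKM (log axis) of the 10 Notch genes in each library, with controls in blue and ETS1 libraries in red; short lines are group means. HEY1 is the most abundant at 82.7 to 129 FPKM and JAG1 the least at 0.658 to 1.14 FPKM, and the groups overlap for DLL1 and for no other gene of the 10.

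Of the 10 genes, 9 reached the expression filter of a mean of at least 1 FPKM over the 4 libraries and were tested; JAG1 did not. HEY1, NOTCH3, RBPJ, NOTCH2 and HES1 rose in the ETS1 libraries, JAG2 and NOTCH1 fell, and DLL1 and MAML1 did not pass the test (limma on log2(FPKM + 1), adjusted p under 0.05 over all 14306 genes tested). So 7 of 9 were called, where 59.1% of all tested genes were called, 30.7% higher and 28.4% lower; with so high a background the count by itself does not set these genes apart. The 2 groups did not overlap for 8 of the 9, against 82.0% of all tested genes. The median log2 change of the 9 was 0.14, against 0.016 for all tested genes, and the largest changes were about 1.5-fold. Without the second ETS1 library the count of higher genes was 3, with HES1 and NOTCH2 (adjusted p 0.0503) lost, and the count of lower genes was 1 without that library, without the first ETS1 library or without the first control library, NOTCH1 being lost each time. In the authors' deposited table, where 51.2% of 15683 genes have an adjusted p under 0.05, 5 of the 10 genes are higher and 2 lower. Those 5 are not the same genes: JAG1 is higher there (the authors' adjusted p 0.00425), while HES1 does not pass (0.125). For single genes, the smallest two-sided p of an exact permutation test of 2 against 2 libraries is 0.33, and each of the 10 genes reached it except DLL1 (0.667).

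Among the receptors, NOTCH3 showed the largest change. NOTCH3 (ENSG00000074181.8, chromosome 19, 15159038 to 15200981, minus strand, GENCODE 29 on GRCh38), a receptor best known from smooth muscle of blood vessels, had 3.11 and 3.00 FPKM in the controls and 4.33 and 4.65 FPKM in the ETS1 libraries. Both ETS1 libraries stood well above both controls. The ratio of means was 1.47 and the log2 change 0.44 (SE 0.049, limma adjusted p = 0.00209), from 1103 and 1163 reads against 2185 and 2314. It was called under all 15 alternatives that gave a value, and its neighbouring genes had a median change of 0.0034.

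NOTCH2 (ENSG00000134250.19, chromosome 1, 119911553 to 120069626, minus strand), the most abundant receptor, had 5.99 and 5.71 FPKM in the controls and 6.94 and 7.02 FPKM in the ETS1 libraries. The groups were separate, and the gap was larger than the spread within either. The ratio was 1.19 and the log2 change 0.22 (SE 0.039, limma adjusted p = 0.00769). Human chromosome 1 also carries NOTCH2NL genes, partial and near-identical copies of NOTCH2 that can share its reads, so its level is uncertain. The change did not pass once the median change of neighbouring genes was removed (0.069, adjusted p 0.156) or once a trend on gene length and GC content was removed (0.081, adjusted p 0.105).

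NOTCH1 (ENSG00000148400.10, chromosome 9, 136494433 to 136545786, minus strand), the receptor most often named in squamous differentiation, had 3.02 and 2.94 FPKM in the controls and 2.48 and 2.43 FPKM in the ETS1 libraries. It was lower in both ETS1 libraries, with a ratio of 0.824 and a log2 change of -0.20 (SE 0.045, limma adjusted p = 0.0153). NOTCH1 lies near the end of the long arm of chromosome 9, where most genes were lower. Of 42 other tested protein-coding genes within 1 Mb, 39 had a negative change, 35 were called lower, and their median change was -0.36. With the median of its 25 nearest tested protein-coding genes on each side removed, the change of NOTCH1 was 0.18 (adjusted p 0.0217), the opposite direction: NOTCH1 was less reduced than its neighbours. The call was lost without the first control (adjusted p 0.0538), the first ETS1 (0.0671) or the second ETS1 library (0.0856), with limma in each case. NOTCH4, a receptor known from endothelium, was at 0.241 and 0.269 FPKM in the controls and 0.154 and 0.185 FPKM in the ETS1 libraries, under the filter.

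**Figure D2:**
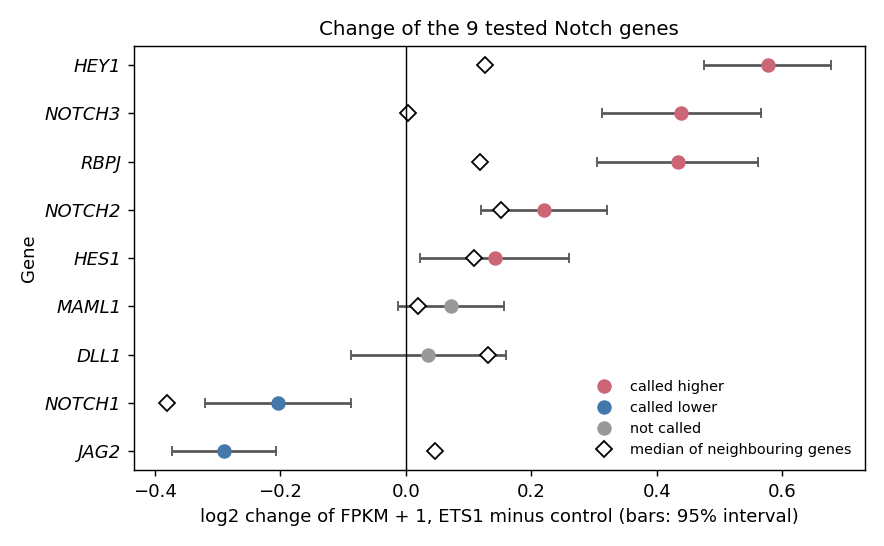
Log2 change of FPKM + 1 (ETS1 minus control) of the 9 tested Notch genes, with 95% intervals from limma, coloured by call; open diamonds are the median change of the nearest tested protein-coding genes on the same chromosome. HEY1, NOTCH3 and RBPJ lie to the right of their neighbours' medians beyond the interval, JAG2 lies to the left of its own, and NOTCH1 at -0.20 lies to the right of its neighbours' -0.38.

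Within each library the receptors can be set against one another, since FPKM is per length and a ratio of 2 genes does not depend on how libraries are scaled. NOTCH3 was level with NOTCH1 in the controls, at 1.03 and 1.02 times its FPKM, and stood at 1.75 and 1.91 times in the ETS1 libraries. NOTCH1 made up 24.9% and 25.3% of the summed FPKM of the 3 receptors in the controls and 18.0% and 17.3% in the ETS1 libraries. The share of NOTCH3 went from 25.6% and 25.7% to 31.5% and 33.0%. NOTCH2 supplied about the same share in every library, between 49.0% and 50.5%. The sum of the 3 receptors was 12.1 and 11.7 FPKM in the controls and 13.8 and 14.1 FPKM in the ETS1 libraries. None of the 3 shares overlapped between groups, though that of NOTCH2 differed by less than 2 percentage points over all 4 libraries, and the exact permutation p of the NOTCH3 to NOTCH1 ratio was 0.33, the smallest possible. For 82.0% of all tested genes the groups did not overlap either.

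Of the 3 ligands, JAG2 was called lower, DLL1 was not called and JAG1 was not tested in the main comparison. JAG2 (ENSG00000184916.8, chromosome 14, 105140981 to 105168824, minus strand), a Jagged-family ligand and the most abundant of the 3, had 9.90 and 10.1 FPKM in the controls and 8.01 and 7.99 FPKM in the ETS1 libraries. All 4 values were tight within their group, and the ETS1 libraries were lower by a ratio of 0.800. The log2 change was -0.29 (SE 0.032, limma adjusted p = 0.00203), and the call held under all 16 alternatives. Its neighbouring genes had a median change of 0.046, the opposite sign.

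JAG1 (ENSG00000101384.12, chromosome 20, 10637684 to 10673999, minus strand), the other Jagged ligand, had 0.701 and 0.658 FPKM in the controls and 1.13 and 1.14 FPKM in the ETS1 libraries. Both ETS1 libraries were higher, with a ratio of 1.67, the largest ratio of the 10 genes, but its mean was under the filter and it was not tested in the main comparison. On the log2(FPKM + 1) scale the difference was 0.35. With no filter it passed limma (adjusted p 0.0358), and the authors' deposited table gives JAG1 a log2 value of 0.60 for its fold change (adjusted p 0.00425). The deposited level of JAG1 is uncertain. Its recovered reads were not whole numbers but 97.16, 99.66, 222.4 and 221.9, in proportion to 194, 199, 444 and 443. The gene length inferred from its FPKM was 3434 bases, 0.369 times the union of its exons in GENCODE 29, where this quotient was between 0.937 and 1.81 for the other 9 genes. In which direction its level may be off, and whether it combines several entries of the same name, was not tested.

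DLL1 (ENSG00000198719.8, chromosome 6, 170282206 to 170306565, minus strand), a Delta-family ligand, had 4.80 and 5.18 FPKM in the controls and 5.05 and 5.22 FPKM in the ETS1 libraries. The first ETS1 library lay between the controls. The log2 change was 0.035 (limma adjusted p = 0.553), with a 95% interval from -0.088 to 0.16, and its sign was negative under quantile normalization, with the neighbours' median removed, or without the first control library (-0.01), while it was 0.11 with the length and GC trend removed (adjusted p 0.0633). FAM120B overlaps DLL1 on the opposite strand, and whether the counting used strand is not given in the sources used here, so reads of the pair cannot be told apart.

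JAG2 was 14.1 and 15.4 times the deposited FPKM of JAG1 in the controls and 7.08 and 6.99 times in the ETS1 libraries. As deposited, JAG1 was 4.55% and 4.13% of the summed FPKM of the 3 ligands in the controls and 7.97% in both ETS1 libraries. JAG2 remained the leading ligand, with 64.3% and 63.4% in the controls and 56.4% and 55.6% in the ETS1 libraries, and DLL1 went from 31.2% and 32.5% to 35.6% and 36.4%. No share overlapped between groups, where the groups did not overlap for 82.0% of all tested genes. The shares depend on one another. Since the level of JAG1 is uncertain, its share and that ratio are values as deposited.

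**Figure D3:**
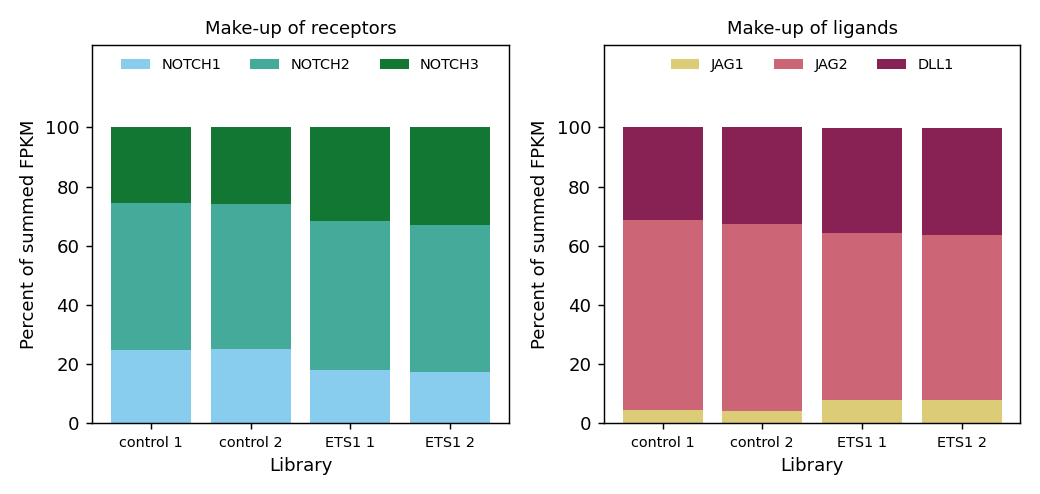
Share of each receptor (left) and each ligand (right) in the summed FPKM of its set, 1 stacked bar per library, in percent. NOTCH2 stays near the middle of the receptors in all 4 libraries, while the NOTCH1 band narrows from 24.9% and 25.3% to 18.0% and 17.3% and the JAG1 band widens from 4.55% and 4.13% to 7.97%.

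Of the nuclear complex, RBPJ rose and MAML1 did not pass. RBPJ (ENSG00000168214.20, chromosome 4, 26163455 to 26435131, plus strand), the DNA-binding protein shared by all Notch receptors, had 7.46 and 7.04 FPKM in the controls and 9.78 and 10.5 FPKM in the ETS1 libraries. The lower ETS1 library was well above the higher control. The ratio was 1.40 and the log2 change 0.43 (SE 0.049, limma adjusted p = 0.00223), from 2726 and 2811 reads against 5069 and 5373, and the call held under all 16 alternatives. With the length and GC trend removed the change was 0.22, and with the neighbours' median removed 0.31. MAML1 (ENSG00000161021.12, chromosome 5, 179732850 to 179777286, plus strand), the Mastermind-like coactivator, had 8.22 and 8.43 FPKM in the controls and 8.79 and 8.81 FPKM in the ETS1 libraries. The values did not overlap, but the log2 change was 0.072 with a 95% interval from -0.013 to 0.16 (limma adjusted p = 0.117). The length inferred for MAML1 was 1.81 times its exon union in GENCODE 29, so its level beside RBPJ is less certain than its change.

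HEY1 had the largest tested change of the 10 genes. HEY1 (ENSG00000164683.16, chromosome 8, 79764010 to 79767863, minus strand), a Hairy-related repressor and direct Notch target, had 88.3 and 82.7 FPKM in the controls and 129 and 127 FPKM in the ETS1 libraries. It stood at percentile 96.4 of tested genes in the controls and 98.0 in the ETS1 libraries, so it was abundant with or without the ETS1 vector. The ratio was 1.50 and the log2 change 0.58 (SE 0.039, limma adjusted p = 0.000726), from 11546 and 11817 reads against 23896 and 23281. The call held under all 16 alternatives, and the authors' deposited table gives HEY1 a log2 fold change of 0.55.

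HES1 (ENSG00000114315.3, chromosome 3, 194136145 to 194138732, plus strand), the best known target of the RBPJ complex, had 20.4 and 20.8 FPKM in the controls and 21.9 and 23.8 FPKM in the ETS1 libraries. The groups were separate, but the 2 ETS1 libraries differed from each other by more than the lower of them differed from the controls. The ratio was 1.11 and the log2 change 0.14 (SE 0.046), only just past the threshold with limma (adjusted p = 0.0475). The call was lost under 8 of 16 alternatives, with adjusted p-values up to 0.590 (neighbours' median removed, change 0.033), while with the length and GC trend removed the change was 0.23 (adjusted p 0.00945). It was lost without the first control (0.128), the second control (0.080) or the second ETS1 library (0.208, change 0.086), and in the authors' deposited table its adjusted p is 0.125. HEY1 was 4.33 and 3.97 times the FPKM of HES1 in the controls and 5.87 and 5.35 times in the ETS1 libraries.

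Further Notch targets were read in the same way. Of 7 further targets (HES4, HES5, HES7, HEY2, HEYL, NRARP and DTX1), 5 were tested, 4 were called lower and 0 higher by limma at the adjusted threshold, with 5 of 5 under an unadjusted p of 0.05; the median log2 change was -0.21. Over all tested genes 28.4% were called lower and 64.4% had an unadjusted p under 0.05. Whether the counts set this list of 5 tested genes apart was not tested. The authors' deposited table gives HES4 an adjusted p of 0.0269 with a log2 fold change of 0.12, so 1 of the 5 was higher there. HES7, a HES gene known from the segmentation clock of the embryo, had 2.77 and 3.44 FPKM in the controls and 1.05 and 1.08 FPKM in the ETS1 libraries. It had the largest log2(FPKM + 1) change of the 5 tested, with a ratio of 0.342 (log2 change -0.99, limma adjusted p = 0.00134), from 209 and 284 reads against 112 and 114.

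NRARP, a small ankyrin-repeat protein that is induced by Notch and feeds back on it, had 14.5 and 14.6 FPKM in the controls and 9.01 and 8.85 FPKM in the ETS1 libraries. Its ratio was 0.615 and its log2 change -0.65 (SE 0.031, limma adjusted p = 0.000482). NRARP lies 781 kb from NOTCH1 in the same part of chromosome 9, and with the neighbours' median removed its change was -0.25 (adjusted p 0.0022), so it fell by more than its neighbours. HEY1 was 6.11 and 5.66 times the FPKM of NRARP in the controls and 14.3 and 14.4 times in the ETS1 libraries; the length inferred for NRARP was 1.49 times its exon union, so the size of this ratio is less certain than its change.

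HEY2 had 10.9 and 11.7 FPKM in the controls and 9.35 and 10.1 FPKM in the ETS1 libraries, and HEYL had 3.32 and 3.40 against 2.65 and 2.90 FPKM. Both encode relatives of HEY1, and both fell slightly, by 0.20 and 0.21 on the log2 scale (limma adjusted p 0.0238 and 0.0236). Both calls were lost with no filter (0.089 and 0.0795), and that of HEY2 with the length and GC trend removed (0.0501). HEY2 also lost the call without the second control (adjusted p 0.0741) or the first ETS1 library (0.107), and HEYL without the first control (0.0541), the second control (0.0754) or the first ETS1 library (0.118). HES5, a classical Notch target of neural progenitors, was under the filter at 0.739 and 0.832 FPKM in the controls and 0.267 and 0.216 FPKM in the ETS1 libraries, from 39 and 48 against 20 and 16 reads, and its ratio of 0.308 was lower than that of HES7. HES4 was the most abundant HES gene, with 178 and 195 FPKM in the controls and 212 and 203 FPKM in the ETS1 libraries, a log2 change of 0.15 that missed the threshold (limma adjusted p = 0.059) and passed it under 8 of 16 alternatives, among them without the second control library (0.22, adjusted p 0.0163); without the first control it was 0.086 (adjusted p 0.149).

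HES6, which opposes HES1 and is not counted among the targets here, had 10.9 and 12.1 FPKM in the controls and 12.4 and 12.3 FPKM in the ETS1 libraries. Its log2 change of 0.094 did not pass (limma adjusted p = 0.186), though it did with the length and GC trend removed (0.21, adjusted p 0.00523) and without the second control library (0.16, adjusted p 0.0247), while without the first control it was 0.025 (adjusted p 0.596), and it was -0.32 with the neighbours' median removed (adjusted p 0.00293). HES2, HES3 and DTX1 were at or below 0.343 FPKM in every library. Across HES1, HES4, HES6, HES7, HEY1, HEY2 and HEYL together, the summed FPKM was 315 and 329 in the controls and 388 and 380 in the ETS1 libraries. HES4 and HEY1 supplied most of it, and the share of HEY1 went from 28.0% and 25.1% to 33.2% and 33.5%.

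**Figure D4:**
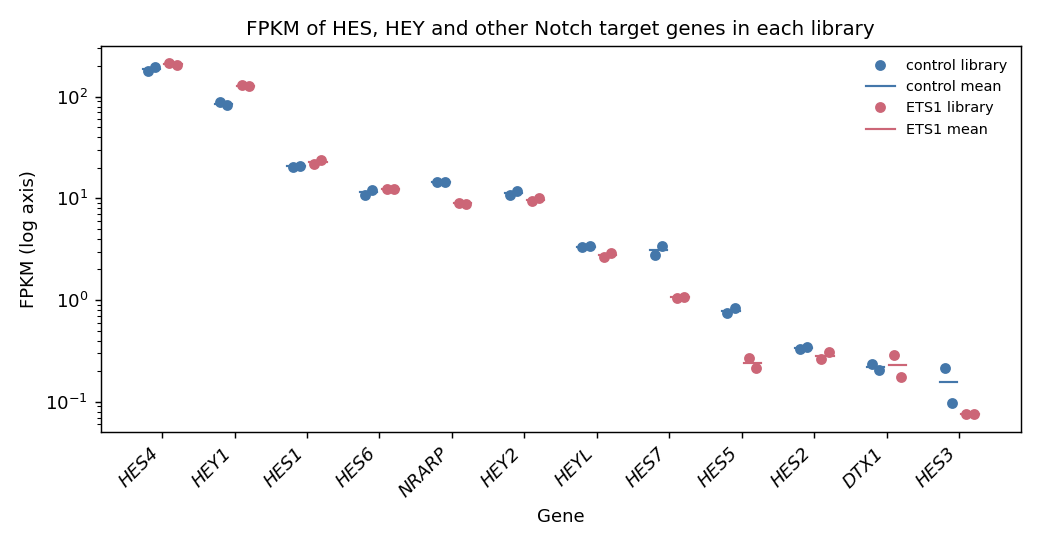
FPKM (log axis) of the HES and HEY genes, NRARP and DTX1 in each library, ordered by mean level, with controls in blue and ETS1 libraries in red; short lines are group means. HEY1 is higher in the ETS1 libraries, HES1 slightly so, and NRARP, HEY2, HEYL, HES7 and HES5 are lower in both.

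The other steps of the pathway were read from 77 further genes in 10 role lists, of which 60 were tested, 20 called higher and 14 lower. That is 56.7% of those tested, close to the 59.1% of all tested genes, with a median log2 change of 0.068. Without the first ETS1 library the counts were 13 and 9, and without the second they were 11 and 11. Among other ligands, 4 of 7 were tested, 1 was called higher and 2 lower, where 59.1% of all tested genes were called. DLL3, a Delta-like protein that does not activate the receptor from outside the cell, went from 5.18 and 5.47 to 3.68 and 4.05 FPKM (log2 change -0.38, limma adjusted p 0.00423). DLK2, a Delta-like relative, went from 5.64 and 5.24 to 3.89 and 3.64 FPKM (-0.43, adjusted p 0.00264). MFAP2, a microfibril protein that can bind Jagged ligands, rose by 0.30 (adjusted p 0.0357) and lost the call with no filter (0.136), under quantile normalization (0.071), or without the first control (0.0891) or the second ETS1 library (0.137). CNTN1, a contactin reported to bind Notch, changed by 0.050 (adjusted p 0.61). DLL4, the Delta ligand of endothelium, was under the filter at 0.540 and 0.518 FPKM in the controls and 0.221 and 0.254 FPKM in the ETS1 libraries. DLK1 and MFAP5 were at or below 0.0324 FPKM in every library.

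Ligands must be taken up by the cell that sends the signal, and the ubiquitin ligase MIB1 marks them for this. MIB1 had 6.69 and 5.99 FPKM in the controls and 11.9 and 13.6 FPKM in the ETS1 libraries, a ratio of 2.02. The groups were far apart, although the ETS1 libraries differed from each other. Its log2 change was 0.91 (SE 0.079, limma adjusted p = 0.00117), called under all 16 alternatives, while its neighbours on chromosome 18 had a median of 0.16. In this list 3 of 6 genes were tested, 2 called higher and 0 lower (limma, adjusted p; 3 of 3 at an unadjusted p under 0.05), where 30.7% of all tested genes were called higher and 64.4% had such a p. NEURL4 rose by 0.15 (adjusted p 0.0139) and lost the call with the neighbours' median removed (0.039, adjusted p 0.34) and without the first (0.084) or the second ETS1 library (0.0838).

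Receptor glycosylation tunes which ligand a Notch receptor answers. Of 6 genes, 4 were tested and only EOGT, which adds N-acetylglucosamine to the receptor's extracellular repeats, was called, rising from 2.53 and 2.35 to 3.66 and 4.19 FPKM (log2 change 0.52, limma adjusted p 0.00338), or by 0.27 with the neighbours' median removed. That is 1 of 4 called, where 59.1% of all tested genes were. Fringe enzymes were represented mainly by RFNG, at 27.3 and 28.5 FPKM in the controls and not called (-0.073), while LFNG and MFNG were at or below 0.326 FPKM.

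All 9 genes of receptor cleavage were tested, 3 called higher and 3 lower, with a median of 0.014; the 66.7% called is near the 59.1% of all tested genes. ADAM17, a protease that can make the first cut, rose from 3.27 and 3.16 to 4.16 FPKM in both ETS1 libraries (log2 change 0.29, limma adjusted p 0.0039), or by 0.15 with the length and GC trend removed. PSEN2, one of the catalytic presenilins of gamma-secretase, fell from 13.2 and 12.9 to 9.74 and 9.70 FPKM (-0.39, adjusted p 0.00105). APH1B, a gamma-secretase subunit on chromosome 15, fell by 0.25 (adjusted p 0.0161). Its neighbours had a median of -0.25, and with that median removed its change was -0.0015. It also lost the call with no filter (0.0615) or without the second control (0.0603), the first ETS1 (0.0834) or the second ETS1 library (0.0501).

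Among nuclear coactivators 5 of 7 were tested, 2 called higher and 1 lower, with a median of 0.11; these 3 of 5 are near the 59.1% called of all tested genes. The acetyltransferase gene EP300 rose from 8.60 and 8.39 to 11.1 and 11.4 FPKM (log2 change 0.37, limma adjusted p 0.00141), and its relative CREBBP rose by 0.20 (adjusted p 0.0111), a call lost with the length and GC trend removed (0.096, adjusted p 0.0744) and without the second ETS1 library (0.17, adjusted p 0.0744). KAT2A, another acetyltransferase, fell from 74.8 and 76.5 to 59.2 and 57.8 FPKM (-0.37, adjusted p 0.000933), and its change was -0.20 under quantile normalization. All 17 corepressors of RBPJ were tested, 5 called higher and 3 lower, with a median of 0.041; the 47.1% called is below that share. TLE4, a Groucho-family corepressor that HES proteins recruit, rose from 11.8 and 11.3 to 18.4 and 18.8 FPKM (0.65, adjusted p 0.000524). NCOR1, a scaffold of histone deacetylase complexes, rose by 0.57 (adjusted p 0.000685; 0.36 with the neighbours' median removed) and KDM5A, a histone demethylase, by 0.57 (adjusted p 0.000769). TLE3, a Groucho-family relative of TLE4 named after its values were seen, fell from 9.60 and 9.33 to 6.22 and 6.28 FPKM (-0.53, adjusted p 0.000669).

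Trafficking and turnover genes held the largest change of the wider list. DTX3, of the Deltex ubiquitin ligase family named for its link to Notch in the fly, had 1.55 and 1.48 FPKM in the controls and 7.96 and 7.85 FPKM in the ETS1 libraries, a ratio of 5.22. Its log2 change was 1.82 (SE 0.042, limma adjusted p = 0.000285), from 257 and 267 reads against 1869 and 1819. DTX3L, a family member that works with the ADP-ribosyltransferase PARP9, went from 0.615 and 0.589 to 1.76 and 1.93 FPKM (0.83, adjusted p 0.00101) and reached the filter only through the ETS1 libraries; with a pseudocount of 0.1 its change was 1.47. CBL, a ubiquitin ligase of receptor turnover, rose by 0.37 (adjusted p 0.00487). In this list 12 of 14 genes were tested, 6 called higher, DTX3L among them, and 1 lower, with a median of 0.12; the 58.3% called is near the 59.1% of all tested genes.

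**Figure D5:**
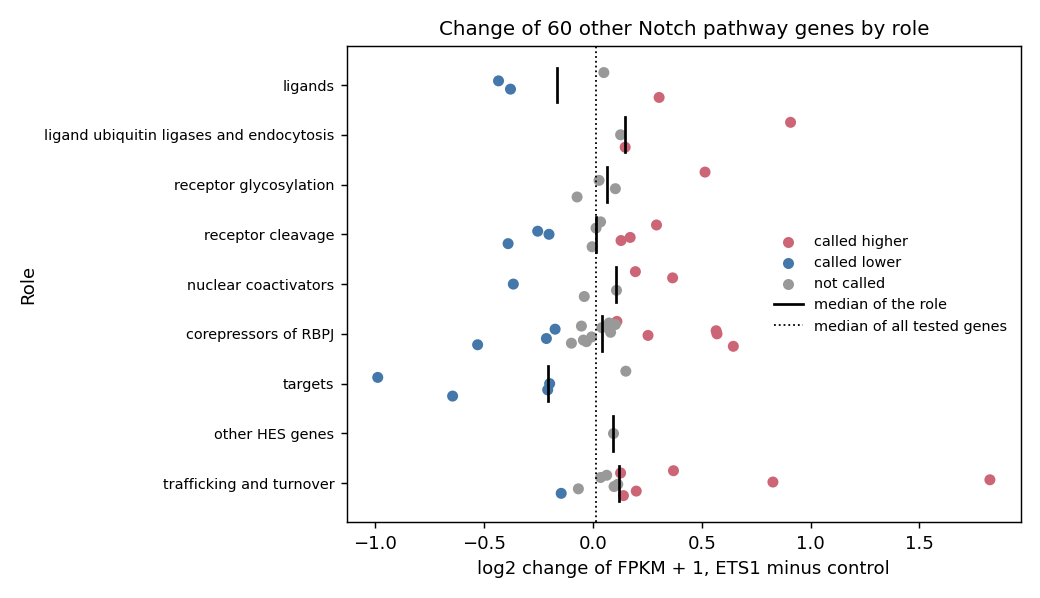
Log2 change of FPKM + 1 (ETS1 minus control) of 60 other tested Notch pathway genes by role, coloured by call, with the median of each role (black bar) and of all tested genes (dotted line at 0.016). DTX3 lies farthest right at 1.82 and HES7 farthest left at -0.99. The target list has 4 of 5 tested genes called lower, where 28.4% of all tested genes were.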

How the data were processed

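The authors deposited FPKM for 4 TE5 libraries and a table of their own comparison; the tools HISAT2, HTSeq and DESeq2 and the build hg38 (GRCh38) are named in the submitters' processing notes, without roles. Which annotation was counted, and whether by strand, is not given in the sources used here. In the authors' comparison table, per the file headers, the mean normalized count is a signal averaged over the 4 libraries, fold changes are log2 values with standard errors, and p-values and adjusted p-values (missing for 969 genes) are the authors'. Raw counts were not used here.

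The deposited FPKM was taken as log2(FPKM + 1) for 14306 genes whose FPKM averaged 1 or more (25.7% of those listed) and fitted by group with limma 3.58.1 in R 4.3.3, with an intensity trend, 2 residual and 2.84 prior degrees of freedom, two-sided tests and Benjamini-Hochberg adjustment over all genes tested at 0.05. This scale understates changes of genes with low FPKM. Exact permutation tests used scipy 1.17.1. Reads were recovered from FPKM and the mean normalized count: 99.66% of values fell within 0.05 of a whole number, for the 16652 genes of the comparison table. Inferred lengths come from the same step. Precision per gene is limited by these reads and by 2 libraries a group.

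The 10 genes and all lists were chosen with earlier results of these data known. The text names all 10, ETS1, up to the 3 called genes with the largest change in each role list, and all further receptors, ligands and HES/HEY genes; other genes named (markers, FAM120B, and DTX1, RFNG, LFNG, MFNG, TLE3 and NEURL1B of the lists) fall outside that rule, and those of the lists were chosen after their values were seen. The alternatives changed the pseudocount (0.1) and the filter (none, or an average FPKM of 5), and used trimmed-mean and quantile scaling, the replicate number as a block, no intensity trend, voom on recovered reads, removal of the local chromosomal median (25 genes each side) or of a length and GC trend (84.0% of genes), the authors' values, and leaving out each library. The fit was tested on simulated data, where it recovered 41.8% of 1.25-fold, 81.8% of 1.5-fold and 95.4% of 2-fold changes. There 6.49% of calls fell on unchanged genes, with 67, 66 and 65 genes changed among 14287 tested. Promoters shown were chosen after values were seen, not by the rule of largest change among the 10 genes. The result of the leukocyte marker list is not reported here.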

Additional observations from a re-analysis of the deposited data

How the results depend on the processing

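The calls of HEY1, NOTCH3, RBPJ and JAG2 held under every alternative that gave a value, and DLL1 and MAML1 passed under none of 16 each. NOTCH1 (0.18) and DLL1 (-0.096) reversed with the local chromosomal median removed, as did HES6 (-0.32), and DLL1 also under quantile normalization (-0.021); the cause was not tested. At a mean FPKM of at least 5, where fewer genes were tested (8215), 2562 genes were called higher and 3000 lower. There 1 of 7 Notch genes was called lower, and of 40 wider pathway genes 13 were higher and 9 lower. With the local chromosomal median removed 1 of 9 Notch genes was called lower, where 3733 of all 11993 genes tested were. Leaving out 1 library at a time, limma called 2845 to 3962 genes higher and 2945 to 3720 lower, 3 to 5 Notch genes higher and 1 to 2 lower, and 11 to 19 wider pathway genes higher and 9 to 13 lower, while the change of DLL1 ran from -0.01 to 0.081; where a group has 1 library left, it is assumed to vary like the other group. With the replicate number as a block, 3712 genes were called higher and 3571 lower, 5 Notch genes higher and 2 lower, and 16 wider pathway genes higher and 13 lower; the libraries share only a number, and their deviations had a correlation of -0.0456 across genes. Chosen after seeing the data, JAG1 multiplied by 2 (a scaling that its inferred length does not bear out) and voom on all 16652 genes of the comparison table each gave 6 of 10 Notch genes called higher. In that voom fit 5223 of the 16652 genes were called higher. Another scaling moved the median of all tested genes by less than 0.1 on the log2 scale.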

Other observations

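Ordered by FPKM, the 10 genes ran in the controls from HEY1 (85.5) and HES1 (20.6) through JAG2 (10.0), MAML1 (8.32), RBPJ (7.25), NOTCH2 (5.85) and DLL1 (4.99) to NOTCH3 (3.05), NOTCH1 (2.98) and JAG1 (0.680 as deposited), and only the neighbours NOTCH3 and NOTCH1 had overlapping values. In the ETS1 libraries RBPJ (10.1) and MAML1 (8.80) stood above JAG2, and NOTCH3 (4.49) stood apart from NOTCH1 (2.46). No neighbours in that order overlapped. The place of MAML1 in both orders is uncertain, as the length inferred for it was 1.81 times its exon union.

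The recovered reads were not whole for 65 of 16652 genes of the comparison table, JAG1 among them. Why the deposited values of these genes are not whole is not given in the sources used here.

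NEURL1B, a ubiquitin ligase of the Neuralized family that acts on ligands and was named here after its values were seen, had 0.681 and 0.763 FPKM in the controls and 1.2 and 1.24 FPKM in the ETS1 libraries, a ratio of 1.69, from 177 and 217 against 444 and 451 reads. It was under the filter, but was called higher under all 3 alternatives that gave a value, and the authors' deposited table gives it an adjusted p of 3.35e-05.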
